A study of Mus musculus with 12 samples.

Results

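The comparison described here is the genotype difference in the response of mouse granulosa cells to human chorionic gonadotropin (hCG). It is the interaction, that is the 4 h minus 0 h change in Ex6DEL cells minus the same change in WT cells, on the log2 scale. A positive interaction means that the change in Ex6DEL lay above that in WT, and a negative one that it lay below. The members are the genes whose mean over all 12 arrays was above the median of all genes, a log2 intensity of 4.74. These were 9097 of 18194 genes, 198 of them predicted genes that are counted and not named. The gene just above this limit, Lrrc56, had an interaction of -0.14, and the gene just below, Rdh13, had -0.50.

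RNA of granulosa cells was measured on 12 Affymetrix arrays, 3 in each of 4 groups, and each array carried RNA pooled from 5 mice. Females were given 5 IU of pregnant mare serum gonadotropin (PMSG) at 24 to 26 days of age to grow follicles, and after 48 h the cells of the 0 h groups were collected by puncture of follicles. The 4 h groups received 5 IU of hCG at that time and were collected 4 h later. In Ex6DEL mice loxP sites around exon 6 of Snf2l had been recombined by a ubiquitous Gata-1 Cre from a CD-1 line, and the deleted allele was then bred on 129SV without Cre, so the deletion was a germline one. WT mice were littermates, and every animal of the 4 groups had received PMSG. Nothing in the labels tells if the 3 pools behind a group were made from different mice, so p-values measure only the spread between these arrays, which may be technical. The number of arrays limits the precision.

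hCG binds the receptor of luteinizing hormone (LH) on granulosa cells of large follicles and raises cyclic AMP through the stimulatory G protein. Protein kinase A, EGF-like ligands and MAP kinases carry the signal on. Within hours genes for ovulation, expansion of the cumulus and progesterone synthesis are switched on, while genes of follicle growth and proliferation are shut down. SNF2L, encoded by Smarca1, is the ATPase of ISWI complexes that slide nucleosomes, and the ISWI complex NURF brings it to promoters.

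The cells carried the genes that define granulosa cells. Of 10 measured granulosa markers 9 were members, and their lowest log2 intensity on any array was 7.69, while Amh, a product of granulosa cells of smaller follicles, lay at the floor of the table. Oocyte, theca and leukocyte markers were also measured and are given beside the results they touch. Several arrays stood apart. Ex6DEL 0 h replicate 3 correlated with the others of its group at 0.866 to 0.927 and with an array of 4 h at up to 0.954 (Pearson r across genes). Ex6DEL 0 h replicate 1 had the highest theca, oocyte and granulosa marker levels of all arrays. Values without one of these arrays are given for several lists and genes.

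No member passed the test of the interaction. Of 9097 members 0 had a limma adjusted p under 0.05, and the smallest was 0.871. Over all 18194 genes 2 passed, which is 0.0110%, and both lay below the level that defines the members. At an unadjusted limma p under 0.05 there were 440 members, or 4.84%, of which 93 had a positive and 347 a negative interaction. Over all genes that share was 3.20%.

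The precision was limited. The median standard error (SE) of a member's interaction was 0.55, and its 95% interval reached a median of 1.25 to either side, which is 2.38-fold. In 999 members, 10.98%, the whole interval lay within a 2-fold difference in either direction (±1), and in 5719, 62.9%, within ±2. For most genes a 2-fold genotype difference in the response was therefore not detectable with these arrays.

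Across members the interaction was shifted below 0. Its median was -0.32, the middle of the distribution ran from -0.67 to 0.01 (quartiles), and 6745 members were negative against 2352 positive. The Ex6DEL response had a median of -0.34 and the WT response one of -0.07. Split by time, the median genotype difference (Ex6DEL minus WT) was 0.21 at 0 h and -0.12 at 4 h. No member passed limma's test of the genotype difference at 0 h (0.0330% of all genes did) or at 4 h (0 of all genes). At an unadjusted limma p under 0.05 there were 621 members at 0 h, 6.83% against 5.36% of all genes, and 106 at 4 h, 1.17% against 1.62%. The difference at 0 h was the larger in absolute size in 5967 members, 65.6%. Thus, in the values as deposited, the groups collected before hCG made up more of the interaction than those collected after it.

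The shift grew with the level of the gene. The members were split by level into 4 classes of equal size. In the lowest class the median interaction was -0.04, and in the following classes it was -0.21, -0.34 and -0.68. The genotype difference at 0 h followed the same order, with medians of -0.02, 0.11, 0.23 and 0.49, and that at 4 h ran from -0.04 to -0.18. The spread of member values within an array also differed between the groups at 0 h. Its SD was 1.97, 2.07 and 2.15 in WT 0 h and 2.45, 2.27 and 2.18 in Ex6DEL 0 h, against 2.15 to 2.35 on the 4 h arrays. When all arrays were given one distribution by quantile normalization, the classes had median interactions of -0.03, -0.05, -0.01 and 0.02. On that scale the class medians of the genotype difference at 0 h were -0.013, -0.0050, -0.025 and -0.059. Those at 4 h were -0.026, -0.037, -0.027 and -0.028. Quantile normalization takes out differences in distribution between arrays. Medians near 0 over large classes follow from that, so they do not show which time made up more of the interaction. The median of all members moved by 0.31 to -0.01, with 4430 positive and 4667 negative. Whether the level-dependent part arose in the cells or in the measurement was not tested. Of the genes named here 64 lay in the highest class, and 58 of them were nearer 0 after quantile normalization, so values on that scale are given beside many of them.

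**Figure D1:**
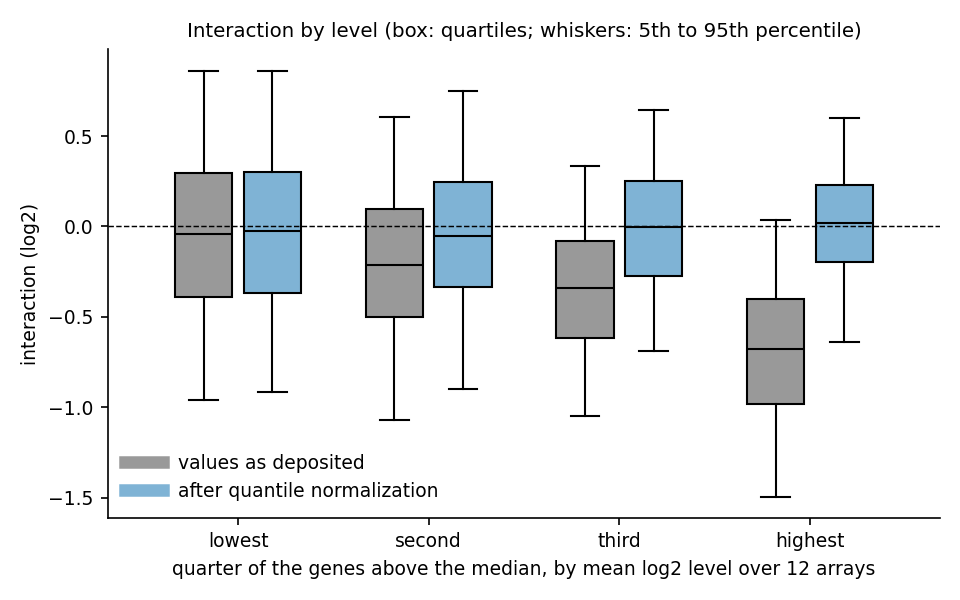
Box plots show the interaction (log2) of the members in 4 classes of equal size by mean level, from low to high, as deposited (grey) and after quantile normalization (blue). Boxes are quartiles with the median and whiskers run from the 5th to the 95th percentile. The grey medians go from -0.04 to -0.68 and the blue ones stay between -0.05 and 0.02.

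Most of the response to hCG was shared. Over members, which are not independent replicates, the changes of both genotypes correlated with a Pearson r of 0.854 and a Spearman rho of 0.755, and 6801 (74.8%) had the same sign. In WT 141 members passed limma's test of the change after hCG and in Ex6DEL 376, against 0.929% and 2.17% of all genes. With the replicate number as a block the counts were 73 and 89. Of the 141 called in WT, 139 had the same sign in Ex6DEL, and their median size was 2.58 in WT and 2.21 in Ex6DEL. Of the 376 called in Ex6DEL all 376 had the same sign in WT, with a median size of 2.20 in Ex6DEL and 1.45 in WT. In each case the genotype that chose the genes shows the larger median, so neither pair of medians is a test.

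**Figure D2:**
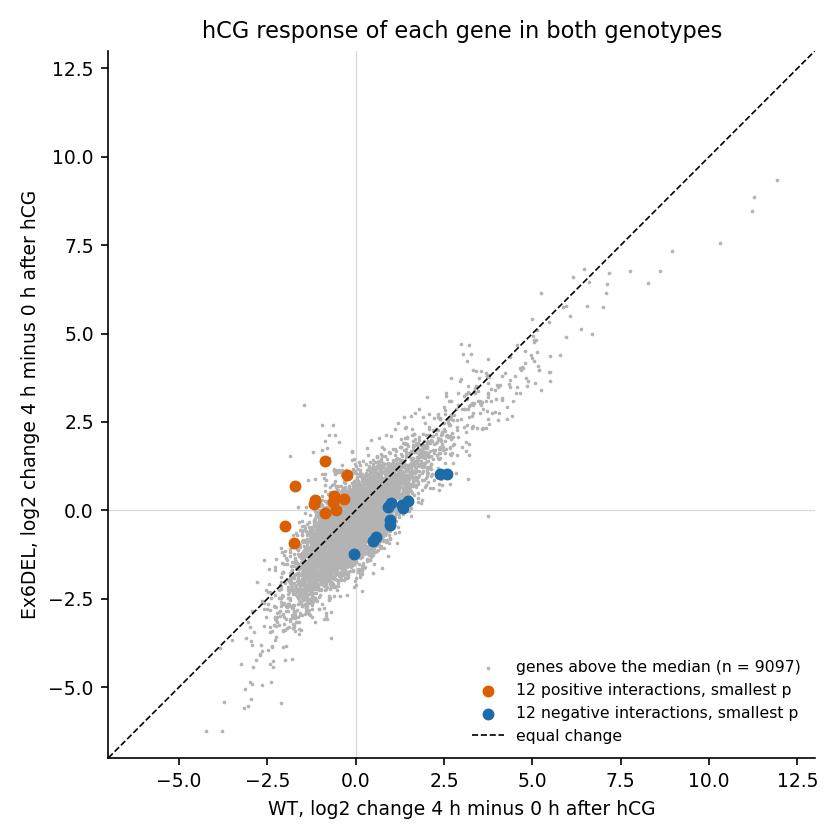
Each point is 1 of 9097 genes, with its log2 change after hCG in WT on the x axis and in Ex6DEL on the y axis. The dashed line marks equal changes, and the 12 genes with the smallest p for a positive (orange) and a negative (blue) interaction are marked. Points lie along the line with most of them below it, 6745 against 2352.

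Genes chosen by the average of both responses gave the strongest shared responses. In this balanced design the size of that average is independent of the size of the interaction, but both share one SE estimate. Choosing by a small p favours genes with little spread between arrays, so their interaction SEs and p-values tend to be small. The average response passed limma's test in 1609 members, 523 of them higher and 1086 lower at 4 h (9.72% of all genes were called). The median interaction was -0.32 in the genes that rose and -0.49 in those that fell. Among the 10 with the smallest p, the leptin receptor gene Lepr rose by 6.46 in WT and 6.83 in Ex6DEL, an interaction of 0.38 (SE 0.54, interval -0.86 to 1.61). Snap25, a vesicle fusion protein, rose by 6.15 and 6.60, with an interaction of 0.45 (SE 0.50, interval -0.70 to 1.60). At 0 h both genes lay near the floor of the table, with WT and Ex6DEL means of 2.69 and 2.61 for Lepr and 2.45 and 2.49 for Snap25. Their changes were measured against that floor and do not show how closely the genotypes compare.

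Prkg2, Gpr83 and Slc7a11 were also low at 0 h, with group means of 2.91 to 4.14. Prkg2, a cyclic GMP-dependent kinase, had changes of 5.23 in WT and 6.15 in Ex6DEL and an interaction of 0.91 (SE 0.69). Gpr83, a G protein-coupled receptor, had 5.14 and 4.47 with an interaction of -0.68 (SE 0.65) and another probe set at 0.46, and Slc7a11, the cystine transporter, had 5.11 and 4.82 with -0.29 (SE 0.75). Bves, a cyclic AMP-binding membrane protein, had 2.64 and 2.43 with -0.21 (SE 0.28). The most precise was Jarid2, a component of Polycomb repressive complexes, whose log2 intensities were 9.69, 9.63 and 9.61 in WT 0 h, 11.75, 11.72 and 11.62 in WT 4 h, 10.01, 10.23 and 9.94 in Ex6DEL 0 h, and 11.74, 11.41 and 11.66 in Ex6DEL 4 h. The genotypes overlapped at 4 h, and the Ex6DEL arrays of 0 h all lay above those of WT. Its interaction was -0.51 (SE 0.14, limma unadjusted p = 0.00508, adjusted p = 0.871), and after quantile normalization it was 0.04. Other Jarid2 probe sets gave -0.50 and 0.05, the latter with changes of 2.74 in WT and 2.79 in Ex6DEL. Of the 3 genes that fell, Lyplal1 had an interaction of -0.83 (SE 0.30), Sbk1 one of -0.35 (SE 0.28) and Uevld one of 0.82 (SE 0.20).

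**Figure D3:**
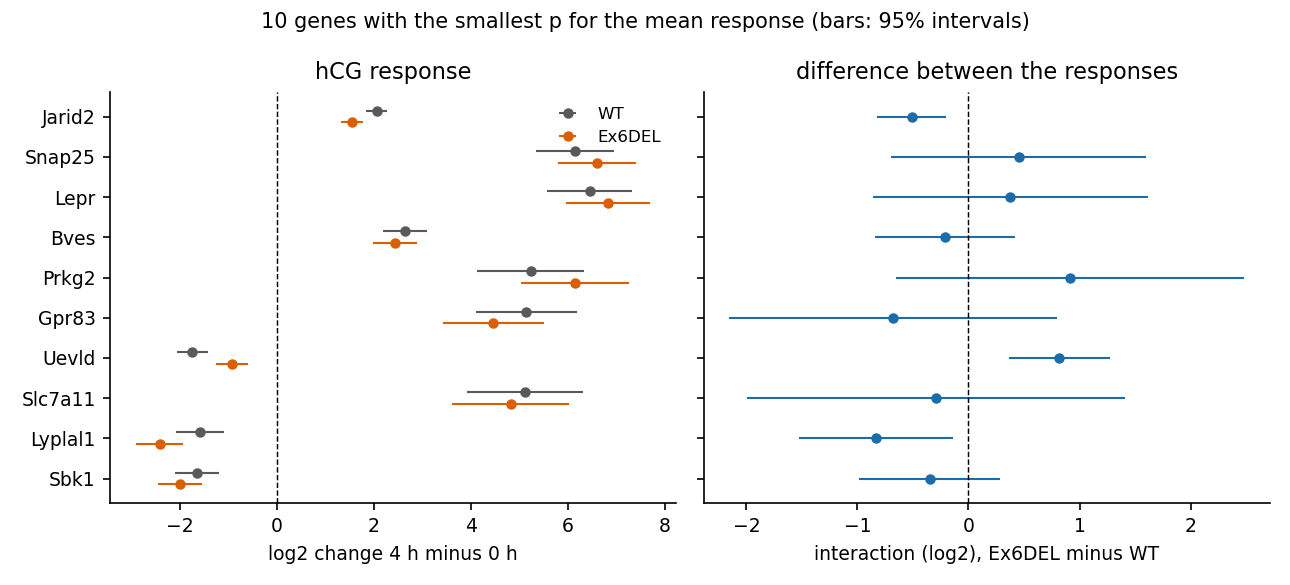
The left panel gives the log2 change after hCG in WT and Ex6DEL for the 10 genes with the smallest p of the average response, and the right panel their interaction, all with 95% intervals. Both genotypes changed in the same direction in all 10, which choosing genes by the average of both favours. The interactions lie between -0.83 and 0.91.

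The 24 genes with the smallest p for the interaction, 12 in each direction, had unadjusted limma p-values of 3.37e-04 to 0.00812 and sizes of 0.59 to 2.41. For all 24 the adjusted p was 0.871, so they are a description of the members nearest to a difference and not calls. In 23 of them all 9 differences between a 4 h and a 0 h array of one genotype lay above all 9 of the other, which is called separated responses here. That pattern held in 135 members, 1.48%, against 1.64% of all genes, so it was no more frequent among members than elsewhere. In 23 of the 24 the genotype difference was larger at 0 h than at 4 h, the exception being Elmo1. In 19 of them the Ex6DEL change was the smaller one in size, and in 13 the changes had opposite signs. Of the 24 genes 13 had other probe sets above the median level, 22 in all, of which 17 had the same sign.

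Polr3b and Klf9, the genes with the smallest p in each direction, mark both patterns. Polr3b encodes the second-largest subunit of RNA polymerase III, which makes transfer RNAs and 5S ribosomal RNA, and Klf9 a zinc finger factor of the Krüppel-like family. Their promoters are shown because protein kinase A acts on many hCG targets through CREB, whose half-site is the motif TGACG, and because factors of the Sp and Krüppel-like families bind GC boxes, GGGCGG. The 250 bases before the RefSeq start on GRCm38.p6 were searched on both strands for both motifs, which do not overlap each other in these windows, and matches are in capitals.

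Klf9, chr19:23140976-23141225, plus strand: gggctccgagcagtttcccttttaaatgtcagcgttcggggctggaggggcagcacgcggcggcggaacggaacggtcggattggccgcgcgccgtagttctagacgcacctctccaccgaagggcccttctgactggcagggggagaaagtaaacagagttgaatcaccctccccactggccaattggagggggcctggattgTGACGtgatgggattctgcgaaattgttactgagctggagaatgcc
Polr3b, chr10:84622048-84622297, plus strand: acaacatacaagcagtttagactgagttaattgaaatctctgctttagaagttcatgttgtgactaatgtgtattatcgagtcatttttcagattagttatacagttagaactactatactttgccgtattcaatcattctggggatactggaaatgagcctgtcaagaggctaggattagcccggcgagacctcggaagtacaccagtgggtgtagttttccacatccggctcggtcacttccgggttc

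The Klf9 window holds 1 TGACG, 46 bases before the start, and no GGGCGG, and the Polr3b window holds neither. Over 32817 promoter windows of this length 17.7% hold TGACG and 32.7% hold GGGCGG, so a single match is common. A match describes the letters and no site.

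Among the 12 genes with a positive interaction the WT mean was lower at 4 h than at 0 h in all 12, and in 9 of them the Ex6DEL mean was higher at 4 h. Polr3b had log2 intensities of 6.03, 6.03 and 5.98 in WT 0 h, 5.12, 4.47 and 4.96 in WT 4 h, 5.10, 4.94 and 5.39 in Ex6DEL 0 h, and 5.64, 5.37 and 5.27 in Ex6DEL 4 h. The WT 0 h arrays were the highest of all 12, and WT 4 h overlapped with Ex6DEL 0 h. The interaction was 1.45 (SE 0.25, interval 0.87 to 2.03), made of a WT change of -1.16 and an Ex6DEL change of 0.29.

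Telo2, which helps to mature kinases of the ATM and mTOR family, had 6.93, 6.53 and 6.35 in WT 0 h and values from 5.34 to 6.11 on the other 9 arrays. Its interaction was 1.36 (SE 0.29), while its other probe set above the median level gave -0.47. Cep57l1, a protein related to the centrosomal CEP57, had 7.08, 6.79 and 7.36 in WT 0 h, 4.85, 4.91 and 5.43 in WT 4 h, 6.15, 6.17 and 5.61 in Ex6DEL 0 h, and 5.33, 5.30 and 5.98 in Ex6DEL 4 h. WT 0 h again stood above all other arrays, and the interaction was 1.58 (SE 0.37). Uevld, a protein with a domain like that of ubiquitin-conjugating enzymes, and Slc66a1, a lysosomal carrier of basic amino acids, had interactions of 0.82 (SE 0.20) and 0.80 (SE 0.20). Uevld also fell in Ex6DEL, with changes of -1.75 in WT and -0.93 in Ex6DEL (limma adjusted p = 0.0285 for the latter).

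Spata5, an ATPase needed for ribosome assembly, had 10.26, 9.21 and 8.72 in WT 0 h, 9.05, 8.19 and 8.30 in WT 4 h, 7.56, 7.34 and 8.07 in Ex6DEL 0 h, and 8.68, 9.27 and 9.19 in Ex6DEL 4 h. The Ex6DEL arrays of 0 h were the lowest 3 of the 12 arrays, those of 4 h lay within the range of WT, and the interaction was 2.27 (SE 0.58). The other 2 Spata5 probe sets above the median level gave 0.10 and 0.63, so the size rests on 1 probe set. Hdac11, a histone deacetylase, had the largest interaction of the 24, 2.41 (SE 0.67), with a WT change of -1.72 and an Ex6DEL change of 0.70, and its responses were not separated. Blzf1, a Golgi matrix protein, had 1.25 (SE 0.32) with another probe set at -0.02, and Castor2, a protein of the arginine-sensing branch of mTOR control, had 0.87 (SE 0.24) with another at -0.42. Jmjd4, an oxygenase that acts on translation termination factor eRF1, had 1.02 (SE 0.29). Zfp710, a zinc finger protein, had 0.65 (SE 0.18) and Hcn3, a cation channel opened by hyperpolarization, 0.59 (SE 0.17). All 12 kept their sign after quantile normalization.

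Among the 12 genes with a negative interaction the usual pattern was a higher value at 4 h in WT and a raised value already at 0 h in Ex6DEL. Klf9 had 9.63, 9.27 and 9.69 in WT 0 h, 11.07, 11.12 and 10.80 in WT 4 h, 10.51, 10.40 and 10.82 in Ex6DEL 0 h, and 10.95, 10.98 and 10.60 in Ex6DEL 4 h. The WT 0 h arrays were the lowest, and the Ex6DEL arrays of 0 h lay near the level of 4 h. The WT change was 1.47 and the Ex6DEL change 0.27, an interaction of -1.20 (SE 0.23, interval -1.73 to -0.67). The other 2 Klf9 probe sets above the median level gave -0.87 and -0.61, and quantile normalization gave -0.63 for the first one.

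Ephx2, the soluble epoxide hydrolase, had 13.38, 14.0005 and 13.92 in WT 0 h, 16.36, 16.38 and 15.77 in WT 4 h, 15.14, 14.90 and 15.11 in Ex6DEL 0 h, and 16.42, 15.86 and 15.94 in Ex6DEL 4 h. Ybx1, a Y-box protein that binds RNA, had 13.12, 12.96 and 13.27 in WT 0 h, 15.85, 16.07 and 15.15 in WT 4 h, 14.45, 14.03 and 14.70 in Ex6DEL 0 h, and 15.77, 15.15 and 15.38 in Ex6DEL 4 h. Both genes were raised at 4 h in each genotype without overlap of arrays, both had their lowest values in WT 0 h, and the genotypes overlapped at 4 h. The interactions were -1.37 (SE 0.33) and -1.54 (SE 0.38), and after quantile normalization -0.11 and -0.40.

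Gnb1, a beta subunit of heterotrimeric G proteins, had 10.19, 10.85 and 10.76 in WT 0 h, 11.01, 11.53 and 11.01 in WT 4 h, 12.12, 11.49 and 11.53 in Ex6DEL 0 h, and 11.01, 10.93 and 10.93 in Ex6DEL 4 h. Its arrays did not overlap between the times in either genotype, with the direction up in WT and down in Ex6DEL, and the interaction was -1.34 (SE 0.33) or -0.61 after quantile normalization. Its other probe set above the median level gave -0.29, with changes of 0.96 in WT and 0.67 in Ex6DEL. Elmo1, which activates Rac in phagocytosis and migration, differed from the rest in that the genotypes parted at 4 h, at 8.10, 8.33 and 7.95 in WT against 7.38, 7.53 and 7.47 in Ex6DEL, while at 0 h they overlapped. Its interaction was -0.80 (SE 0.18), and -0.66 after quantile normalization.

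Obsl1, a cytoskeletal adaptor and subunit of the 3M complex, had -1.35 (SE 0.31), and its 3 other probe sets above the median level gave -1.16, -1.03 and -0.89. Its value after quantile normalization was -0.74. Fcgrt, the neonatal Fc receptor, had a WT change of -0.05 and an Ex6DEL change of -1.23, and the ubiquitin ligase gene Zfp91 had 0.90 and 0.10. Tsc22d1 (a leucine zipper protein induced by TGF-beta), Arl1 (a Golgi GTPase), Pttg1ip (a binding partner of securin) and Slc25a3 (the mitochondrial phosphate carrier) had interactions of -1.36, -1.24, -1.25 and -1.16. After quantile normalization Arl1 was at -0.42 and Pttg1ip at -0.16. Tsc22d1 was then at 0.01 and Slc25a3 at 0.21, the only 2 of the 24 that changed sign, and 15 of the 24 kept an unadjusted p under 0.05.

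**Figure D4:**
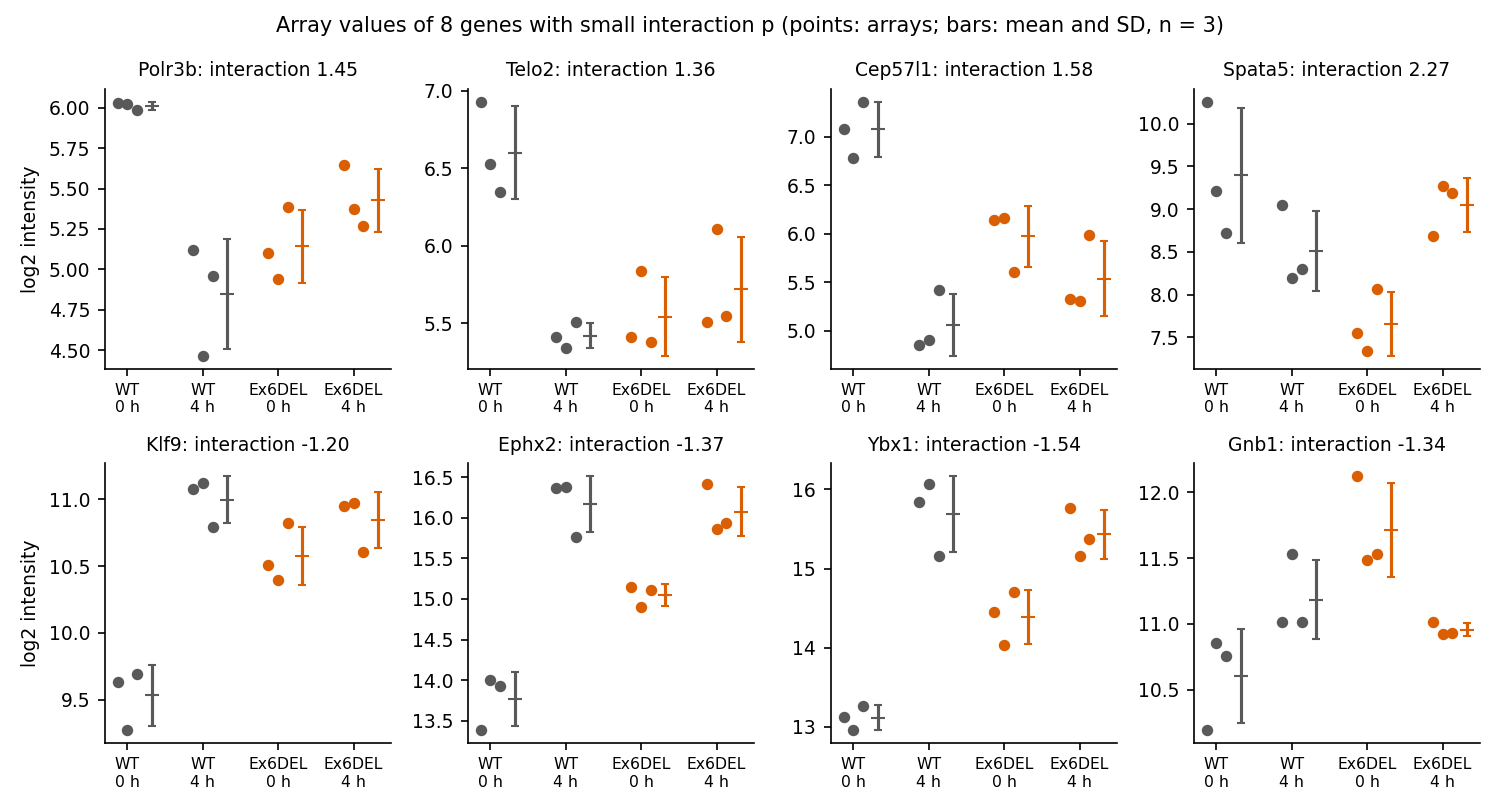
Log2 intensities of 8 of the 24 genes are plotted by group, with a point for each array and the mean and SD of 3 arrays. In Polr3b, Telo2 and Cep57l1 the WT 0 h arrays are the highest, in Klf9, Ephx2 and Ybx1 they are the lowest, and in Spata5 the Ex6DEL 0 h arrays are the lowest, and in Gnb1 the groups move in opposite directions.

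Opposite responses in which 0 h and 4 h arrays overlapped in neither genotype were found in 13 members, 8 of them up in WT and 5 up in Ex6DEL. They were 17 among all genes, 0.0934%, whereas 1602 members had responses without overlap in the same direction. Over all genes the arrays did not overlap in 7.52% (higher at 4 h) and 11.4% (lower) in WT, and in 5.13% and 14.5% in Ex6DEL. Clu, the secreted chaperone clusterin, had a WT change of 0.70 and an Ex6DEL change of -1.06, an interaction of -1.77 (SE 0.64). Ex6DEL 0 h replicate 1 was the highest array at 17.29 against 15.76 and 15.41 in its group. Its 3 other probe sets gave -1.71, -1.69 and -1.68, and quantile normalization gave -0.35 for the first one. Rpl41, a ribosomal protein, had -1.40 (SE 0.45), and -0.10 after quantile normalization. Its other probe sets gave -1.62, -0.03 and -0.38, and the last 2 of these had higher means at 4 h in both genotypes. Itm2c, a membrane protein of the BRICHOS family, had -1.27 (SE 0.52), and -0.33 after quantile normalization. In Ex6DEL 0 h its replicate 1 was also the highest, at 13.84 against 12.35 and 12.32. With 1 array left out its interaction ran from -1.52 to -0.76.

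The other 3 named genes of this kind were up in Ex6DEL, and each rested on low values in Ex6DEL 0 h replicate 1. The probe set of Pik3cd, a catalytic subunit of PI3 kinase, had 9.46, 12.98 and 14.49 in Ex6DEL 0 h against 13.46 to 15.49 on the other 9 arrays. Its interaction was 3.37 (interval -0.04 to 6.78), and 1.95 without that array, while its other probe set above the median level gave -0.85. E2f5, a cell cycle transcription factor, had 2.66 (SE 1.02), 1.73 without that array, with other probe sets at -0.48 and 0.24. Sema6c, a semaphorin, had 1.73 (SE 0.80), and 0.96 without it. After quantile normalization Pik3cd had 4.46 and E2f5 3.83. For Pik3cd and E2f5 the probe sets of a gene therefore disagreed, and for none of these 3 did the adjusted p fall below 0.518 in any setting.

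The pathway that hCG starts was described from 28 gene lists, with counts of members and medians beside the member median of -0.32 and the 4.84% of members at an unadjusted p under 0.05. Counts by sign stand against 6745 negative of all 9097 members. The cumulus matrix, coagulation, cytokine and DNA replication lists had a share of negative members near that. The glycolysis, mitosis and growth factor lists lay only a little above it. In no list did a member pass the adjusted test. Of the genes named from the lists 32 had other probe sets above the median level, 57 in all, of which 48 had the same sign. For the LH receptor, G protein, cyclic AMP and protein kinase A genes 16 of 19 members were negative, the median was -0.68, and 1 had an unadjusted p under 0.05. That gene was Rgs2, a brake on G protein signalling, with changes of 2.35 in WT and 0.57 in Ex6DEL and an interaction of -1.78 (SE 0.72). Its other probe sets gave -1.40, -1.34 and 0.45. Gnas, the stimulatory G protein, had -1.38 (SE 0.66), Prkar2b and Prkar1a, regulatory subunits of protein kinase A, -1.72 (SE 0.78) and -0.92 (SE 0.47). After quantile normalization Rgs2 had -0.70, Gnas -0.33, Prkar2b -0.45 and Prkar1a -0.12, and the list had 11 negative and 8 positive members and a median of -0.12. The EGF-like ligands and EGF receptor genes split 6 positive to 7 negative with a median of -0.47. It was 0.13 without Ex6DEL 0 h replicate 3 and -0.61 without WT 0 h replicate 3.

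The ovulatory genes had large responses and wide intervals. Of 29 LH-induced ovulatory genes 25 were negative with a median interaction of -0.94, and the cumulus matrix genes had 9 of 12 negative and -0.76. The lysosomal protease Ctsl had -1.44 (SE 0.62) and the proprotein convertase Pcsk5 had -1.38 (SE 0.70). With the mean of its probe sets Ctsl had 0.51, but its other probe set, at 2.46, had a mean level of only 3.01, below the median. After quantile normalization Ctsl had -0.00868 and Pcsk5 -0.70. The following 4 genes were chosen after their values were seen, as textbook markers of ovulation. Pgr, the progesterone receptor, had 3.82, 2.30 and 2.89 in WT 0 h, 14.08, 13.41 and 12.43 in WT 4 h, 4.71, 2.79 and 10.44 in Ex6DEL 0 h, and 14.40, 12.66 and 13.58 in Ex6DEL 4 h. One array, Ex6DEL 0 h replicate 3, stood far above the others of 0 h. The interaction of Pgr was -2.74 (SE 2.35, interval -8.10 to 2.62). With 1 array left out it ran from -4.34 to -0.51, the latter without Ex6DEL 0 h replicate 3. Btc, an EGF-like ligand, Ptgs2, the inducible cyclooxygenase, and Tnfaip6, which cross-links hyaluronan in the cumulus, had -2.42 (SE 2.78), -1.61 (SE 2.69) and -1.83 (SE 2.81). Without the same array they had 0.38, 0.81 and 0.90.

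The same array weighed on the early genes. In 26 immediate early genes the mean log2 intensity was 8.48, 6.52 and 6.88 in WT 0 h and 6.85, 6.92 and 10.75 in Ex6DEL 0 h, so that WT replicate 1 and Ex6DEL replicate 3 stood above the rest. The list had 23 of 26 negative members and a median of -1.12. That median became 0.17 without Ex6DEL 0 h replicate 3, -0.36 without both arrays and -1.73 without Ex6DEL 0 h replicate 2. Fosl2, a partner of Jun, had -1.54 (SE 0.58), and -0.44 after quantile normalization. Myc had -1.07 (SE 0.45) and Jund -0.65 (SE 0.32), which was 0.22 after quantile normalization. For the cumulus list the median without Ex6DEL 0 h replicate 3 was -0.02, for the ovulatory list -0.44 and for the MAPK feedback genes 0.36, against -0.11 with all arrays and 0.21 after quantile normalization. The lowest medians with 1 array left out were -1.60 for the cumulus list, -1.32 for the ovulatory list and -0.73 for the MAPK feedback genes.

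Steroid and cholesterol genes were mostly negative as deposited. Of 13 steroid synthesis genes 12 were negative with a median of -0.96, and of 18 cholesterol genes 17 with a median of -0.37. Hsd17b1, which makes estradiol in granulosa cells, had changes of -0.71 in WT and -2.88 in Ex6DEL, an interaction of -2.17 (SE 0.73). Hsd3b1, an enzyme of progesterone synthesis, had -1.66 (SE 0.69), Scarb1, the receptor for high-density lipoprotein, -0.96 (SE 0.45; 0.30 after quantile normalization), and Scap, which escorts SREBP, -1.57 (SE 0.69). After quantile normalization Hsd17b1 had -0.89, Hsd3b1 -0.33 and Scap -0.43, and the list medians were 0.11 and 0.17. Hpgd, which degrades prostaglandins, had -1.80 (SE 0.75) in a prostaglandin list with a median of -0.31.

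The genes of the growing follicle were negative throughout as deposited. All 22 members of the preovulatory granulosa list were negative, with a median of -1.22, and 8 had an unadjusted p under 0.05. Inhbb, which encodes a beta chain of inhibin B and activin B, had 13.37, 14.55 and 15.25 in WT 0 h, 10.93, 12.12 and 13.79 in WT 4 h, 16.38, 15.69 and 15.09 in Ex6DEL 0 h, and 10.27, 9.70 and 10.83 in Ex6DEL 4 h. WT replicates differed among themselves by almost 3 units at 4 h, and the Ex6DEL arrays lay above most WT arrays at 0 h and below all of them at 4 h. The WT change was -2.11 and the Ex6DEL change -5.45, an interaction of -3.34 (SE 1.07, adjusted p = 0.871 by limma), while the other probe set above the median level gave -0.88 and quantile normalization gave -1.995 for the first one.

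Greb1, an estrogen-regulated gene, had 12.40, 13.08 and 13.65 in WT 0 h, 11.89, 12.48 and 12.32 in WT 4 h, 15.43, 14.23 and 13.50 in Ex6DEL 0 h, and 11.74, 11.47 and 10.75 in Ex6DEL 4 h. Its responses were separated, with an interaction of -2.25 (SE 0.72), and -1.08 after quantile normalization. Gja1, the gap junction protein connexin 43, had -1.59 (SE 0.50) and Inha, the inhibin alpha subunit, -1.26 (SE 0.41), but these came to -0.15 and -0.11 after quantile normalization. Fshr, the receptor of follicle-stimulating hormone, chosen here after its values were seen, had changes of -2.44 and -4.34, an interaction of -1.90 (SE 0.91) that was -1.08 after quantile normalization. Nearly the whole list is highly expressed, 19 of 22 in the highest class by level, and after quantile normalization 19 of 22 were negative with a median of -0.41 against -0.01 over all members. Inhba, the activin A chain, had -1.19 (SE 0.45), and 0.12 after quantile normalization. The mean of the 9 granulosa markers, which share genes with this list, was 13.5, 13.9 and 14.6 in WT 0 h, 15.5, 14.7 and 14.4 in Ex6DEL 0 h, 12.9, 13.4 and 13.6 in WT 4 h, and 12.5, 12.4 and 12.6 in Ex6DEL 4 h.

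Lists of housekeeping genes were also mostly negative as deposited. Of 22 ribosomal protein genes 21 were negative with a median of -1.48, and 12 had an unadjusted p under 0.05, while 20 of the 22 lay in the highest class by level. Rps7, Rps18 and Rps3 had -1.28, -1.56 and -1.49, which became 0.14, -0.12 and -0.03 after quantile normalization, where the list median was -0.25. Rps9 had the most negative interaction of all members, -3.89 (SE 1.18), with 10.51, 6.98 and 7.69 in WT 0 h against 11.54 to 13.15 on the other 9 arrays. Its other probe sets gave -0.05 and -1.27, so the size belongs to 1 probe set, for which quantile normalization gave -3.20.

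Respiratory chain subunits were negative in 29 of 30, with Cox5b, Cox6c, Cox4i1 and Ndufb8 at -1.18, -1.22, -1.56 and -0.85. Chaperones were negative in 27 of 28, with Hspa8 at -1.74, Hsp90b1 at -1.49, Cct2 at -1.20 and Cct5 at -0.85. Their medians of -0.83 and -0.81 became -0.03 and -0.09 after quantile normalization, with Cox5b at 0.25, Cox6c at -0.42, Hspa8 at -0.32 and Cct5 at 0.18. Of 4 other Cox5b probe sets 1 was positive, at 0.07. Glycolysis genes were negative in 19 of 24 with a median of -0.50, and Ldha, Aldoa and Pgk1, enzymes of the pathway, had -1.21, -1.19 and -0.93. After quantile normalization that list had 12 negative and 12 positive members, with Ldha at 0.09, Aldoa at -0.13 and Pgk1 at 0.51.

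Cell cycle genes stayed near the member median. DNA replication genes had a median of -0.46 with 19 of 25 negative, and mitosis genes -0.40 with 24 of 30 negative. Fen1, a flap endonuclease of replication, had an interaction of 1.16 (SE 0.49), and 2.37 after quantile normalization, but its other probe set gave -0.52. Prc1, which bundles spindle microtubules, had -1.06 (SE 0.43), and -0.56 after quantile normalization. Growth factor and activin/BMP genes had -0.59 with 21 of 27 negative, among them the receptors Bmpr1b at -1.46 (SE 0.64) and Bmpr2 at -1.54 (SE 0.74), the BMP target Id3 at -1.54 (SE 0.73) and the IGF-binding protein Igfbp5 at -1.33 (SE 0.70). After quantile normalization these 4 had -0.63, -0.24, -0.93 and -0.44. Other probe sets gave 0.14 and -0.16 for Bmpr1b, -0.56 and 0.43 for Bmpr2, and 2.41 for Igfbp5. Of 12 fibrinogen-like and coagulation genes 9 were negative with a median of -0.59, and of 11 cytokine and innate immune genes 8, with a median of -0.32 that was 0.08 after quantile normalization. The chemokine Cxcl1 had 1.77 (SE 0.79), and its other probe set gave -0.14.

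Chromatin remodellers were also near the member median. The ISWI subunits had a median of -0.47 with 11 of 13 negative and came to 0.04 after quantile normalization, and 29 subunits of the BAF, CHD and INO80 families had -0.42. Rbbp7, a histone-binding subunit, had -1.26 (SE 0.52; 0.04 after quantile normalization), Baz1b, the partner of SNF2H in WICH, -0.78 (SE 0.41), Smarca4, the BAF ATPase BRG1, -0.91 (SE 0.45), and Smarcd3 and Smarcd1, BAF subunits, -1.21 (SE 0.66) and 0.23 (SE 0.10). After quantile normalization Baz1b had -0.20 and Smarca4 -0.35. Smarca1 itself had an interaction of -0.08 (SE 0.68, interval -1.63 to 1.47) on 1 probe set, and 0.62 after quantile normalization. Its place relative to exon 6 was not examined, so it does not check the genotype. Fgl2, the fibrinogen-like protein named in the series title, had -1.66 (SE 2.09, interval -6.41 to 3.10, limma adjusted p = 0.878). Its changes were 3.22 in WT and 1.56 in Ex6DEL. Its values in Ex6DEL 0 h were 7.92, 3.20 and 3.82, and the interaction was -0.19 without replicate 1 of that group and -0.41 without WT 4 h replicate 1. With 1 array left out it ran from -2.64 to -0.19, and after quantile normalization it was -1.52. The other Fgl2 probe set, not above the median level, gave -1.57.

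Among the lists for other cell types, only the oocyte markers had array means at 0 h that did not overlap between WT and Ex6DEL. The ribosomal protein, chaperone and LH-induced ovulatory lists, which mark no other cell type, showed this as well. The 10 oocyte markers had mean log2 intensities of 7.58, 7.82 and 8.65 in WT 0 h and 9.90, 9.07 and 8.67 in Ex6DEL 0 h, against 8.12 to 9.08 on the 4 h arrays. Every Ex6DEL array of 0 h lay above every WT array of 0 h, if only by little for WT replicate 3. Their median interaction was -1.24 with 9 of 10 negative, and -0.86 with 10 of 10 negative after quantile normalization. Without Ex6DEL 0 h replicate 1 the median was -0.70, and without Ex6DEL 0 h replicate 3 it was -1.63. Gdf9, an oocyte growth factor, had 9.62, 9.79 and 10.53 in WT 0 h and 12.38, 11.58 and 10.85 in Ex6DEL 0 h, and an interaction of -1.497 (SE 0.65), and -0.84 after quantile normalization. Zp2 of the zona pellucida, Padi6 and Nlrp5 had -1.59, -1.31 and -1.33. In RNA of pooled cells a difference in the number of cells of a type and one in the RNA per cell cannot be told apart.

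For 12 theca and stroma markers the mean was 9.36, 9.06 and 8.22 in WT 0 h, 11.999, 9.23 and 8.31 in Ex6DEL 0 h, and 7.75 to 8.78 on the 4 h arrays, with Ex6DEL replicate 1 far above the rest. All 12 were negative with a median of -1.65, which was -0.32 without Ex6DEL 0 h replicate 1 and -1.11 after quantile normalization. Without Ex6DEL 0 h replicate 3 the median was -2.43. The collagen gene Col1a2, chosen after its values were seen, had 15.20 on that array against 10.07 to 12.98 on the other 11, and the calcification inhibitor Mgp had an interaction of -1.86 (SE 0.99). Of 15 measured leukocyte markers 6 were members, 4 of them positive and 2 negative, with a median of 0.25 and a lowest value of -0.25. The 2 named ones were Adgre1 at 1.15 (SE 0.61) and Laptm5 at 2.90 (SE 1.52). Laptm5 had 3.44 after quantile normalization, and its other probe sets gave -0.35 and -0.07. Ovarian surface epithelium markers split 4 to 4, and Epcam among them had 1.45 (SE 0.50). Endothelial markers had a median of -0.53 over 6 members and red blood cell markers -0.07 over 3. The part of other cells in the interactions above was not tested.

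Outside the members, 2 genes passed the test. Ccdc8, which binds Obsl1 in the 3M complex, had 4.66, 4.90 and 4.92 in WT 0 h and 2.39 to 2.78 on the other 9 arrays, so that it was above the floor only in WT 0 h. Its change was -2.18 in WT and -0.13 in Ex6DEL, an interaction of 2.05 (SE 0.14, limma adjusted p = 0.00322). The predicted gene Gm1976 had 3.03, 2.85 and 3.05 in WT 0 h and 2.22 to 2.24 on the other arrays, an interaction of 0.75 (limma adjusted p = 0.0163). Both were named after their values were seen, and the other groups lay at or near the floor, where no further decrease can be measured.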

How the data were processed

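Per the submitters' processing notes the authors made the values with GCRMA (version not given), which corrects background, normalizes arrays and summarises probe sets. The deposited values are log2 intensities of 45101 probe sets on 12 arrays, from 2.21 to 18.2, with array medians of 2.75 to 2.91. Values within 0.1 of the floor made up 36.4% to 40.5% of an array but 0.0211% of the members' values. A reference table gave 34958 probe sets exactly 1 symbol. 932 had several and 9211 were not listed, and both were left out. The probe set with the highest mean stood for a gene.

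One model with 4 groups was fitted to all 12 arrays and 18194 genes with limma 3.58.1 in R 4.3.3 (lmFit, eBayes without trend, not robust, 8 residual and 0.626 prior degrees of freedom). Tests were two-sided with Benjamini-Hochberg adjustment over all genes, called under 0.05. Intervals are 95%. The code of the fit was checked on simulated data with independent noise. That check does not cover arrays that stand apart or effects shared by replicate number.

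Members, lists and named genes were chosen with earlier results of these data known. Named are Smarca1, Fgl2, the 12 genes with the smallest p in each direction, up to 6 with opposite responses, 10 by the average response, and up to 4 members of a list with p under 0.1. Deviations of same-numbered arrays from their group means correlated above 0.1 in 11 of 18 pairs (-0.369 to 0.727). Between Ex6DEL 0 h and 4 h all 3 pairs did (0.143, 0.405 and 0.242). The main fit did not block by replicate number. A blocked fit was run as an alternative, and its counts are given. Promoters are from RefSeq.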

Additional observations from a re-analysis of the deposited data

Results flagged for a closer look

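Among the named genes and those called outside the members, 9 stood out in the genotype difference, either by limma's test of the interaction or because 0 h and 4 h arrays did not overlap and the direction was opposite in WT and Ex6DEL. Ccdc8 (2.05) and Gm1976 (0.75) passed limma's test of the interaction, with adjusted p-values of 0.00322 and 0.0163. The other 7, of 13 members with such opposite directions, were tested in the same way and did not pass (adjusted p = 0.871). Up in WT and down in Ex6DEL were Clu (-1.77), Gnb1 (-1.34), Itm2c (-1.27) and Rpl41 (-1.40). Down in WT and up in Ex6DEL were Pik3cd (3.37), E2f5 (2.66) and Sema6c (1.73). After quantile normalization Clu had -0.35, Gnb1 -0.61, Itm2c -0.33 and Rpl41 -0.10. Other probe sets of Gnb1 (0.96 in WT, 0.67 in Ex6DEL) and Rpl41 (1.24 and 1.21) had changes above 0 in both genotypes. All values except these changes are interactions on the log2 scale.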

How the results depend on the processing

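Members called for the interaction numbered 0 as deposited, 4 with WT 0 h replicate 1 and also Ex6DEL 0 h replicate 3 left out (Abr, Bid, Dcaf10, Wdr59), 5 when every probe set was tested by itself (lower probe sets of members' genes, none of them the one that stands for the gene), 0 to 2 with 1 array left out, and 0 in the other settings. Slc66a1, at 0.98 without WT 0 h replicate 3, was the only named gene to pass (limma adjusted p = 0.0271). With the replicate number as a block, the interaction had 0 calls. The block gave 73 calls in WT and 89 in Ex6DEL, and 9 of 12 arrays correlated best with their own number, which is a hint from the data and not the design.

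Calls of the WT response, 141 as deposited, were 253 after quantile normalization, 216 after a shift to one median, 525 with members alone, 1859 with array weights, 12 at an adjusted p under 0.01, 231 without both arrays and 29 to 298 with 1 array left out. Those of the Ex6DEL response, 376, were 749 after the shift, 1334 with members alone, 8 at 0.01, 1162 without both and 17 to 1126 with 1 left out. Those of the average response, 1609, were 2504 with members alone, 2676 with array weights, 380 at 0.01, 2009 without both and 814 to 1990 with 1 left out. Genotype differences at 0 h, 0 as deposited, had 1 call after quantile normalization, 5 with array weights, 9 without both, 2 with every probe set and 0 to 7 with 1 left out, and those at 4 h had 3 with every probe set and 0 to 1 with 1 left out. Separated responses, 135, were 64 after quantile normalization, 861 without both and 159 to 682 with 1 left out, where fewer differences must separate. The median interaction was -0.0123 after quantile normalization, -0.17 with the mean of probe sets and -0.42 to -0.18 with 1 array left out.

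Signs turned after quantile normalization for Tsc22d1 (0.00782), Sbk1 (0.00371), Rbbp7 (0.0407), Jarid2 (0.0437), Ldha (0.0881), Inhba (0.12), Rps7 (0.14), Cct5 (0.18), Slc25a3 (0.21), Jund (0.22), Cox5b (0.25), Scarb1 (0.30), Pgk1 (0.51) and Smarca1 (0.62). With the mean of probe sets they turned for Baz1b (0.0366), Ctsl (0.51), Igfbp5 (0.54) and Bves (0.55), and with array weights for Smarca1 (0.39). The other probe sets of Baz1b, Ctsl and Bves all lay below the median level. Without both arrays signs turned for Smarca1 (0.10), Slc7a11 (0.12) and Tnfaip6 (0.26). With 1 array left out Smarca1 ranged from -0.51 to 0.40, Slc7a11 from -0.60 to 0.17, Ptgs2 from -2.94 to 0.81, Btc from -3.82 to 0.38 and Tnfaip6 from -3.77 to 0.90. The cause of these changes was not tested.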
